A study of Mus musculus with 9 samples.

Results

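Histone genes were examined in mouse lung after X-irradiation of the brain, as a family of replication-dependent genes and their variants. The members were the rows whose gene symbol starts with Hist1h, Hist2h, Hist3h or Hist4h (replication-dependent) or with H2af, H3f or H1f (variants), with a nonzero count in at least 3 of the 9 libraries. These were 76 of the 22564 protein-coding genes in the deposited table, 66 replication-dependent and 10 variant. Of the replication-dependent members, 6 encoded the linker histone H1, 17 H2A, 18 H2B, 12 H3 and 13 H4. Of the variants, 2 were H1, 6 were H2A and 2 were H3 genes. Chromosome 13 carried 53 of the 66 replication-dependent members and chromosome 3 carried 10, whereas the 10 variants were spread over 8 chromosomes, with at most 2 on any of them. A further 7 candidates were left out, 6 of them at 0 in every library.

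Replication-dependent histone genes supply the core and linker histones that package newly made DNA, and they are transcribed mainly in S phase. Their messenger RNAs have no introns and usually no poly(A) tail, and they end in a stem-loop that is bound by the protein SLBP and cut with the help of U7 small nuclear RNA. Variant, or replacement, histone genes are single genes, mostly with introns and polyadenylated transcripts, and they are transcribed throughout the cell cycle and in resting cells. In adult lung most cells are not dividing, so both classes are of interest in RNA from whole tissue.

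All libraries came from lungs of mice of the GFP-LC3 strain, which carries the autophagy marker LC3 fused to a fluorescent protein. The 3 groups held 3 libraries each. One group received sham irradiation, one received a single whole-brain X-ray exposure to 10 Gy at 2 Gy per min, and one received the same exposure once a week for 3 weeks. The series asks about bystander effects, that is, changes in an organ outside the irradiated field. Nothing in the labels gives the age or sex of the mice, the time from the last exposure to collection, or the schedule of the sham group, so these cannot be told apart from exposure. Nothing states either that the libraries of a group came from separate animals, so p-values measure the spread between these samples, which may be technical. RNA was depleted of ribosomal RNA and not selected for poly(A) tails, so transcripts without a tail could be captured.

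Each library held between 4987828 and 7381008 fragments assigned to genes. The lung markers were present throughout, with Sftpc, the surfactant protein C of alveolar type 2 cells, at 1447 to 7001 CPM (fragments of a gene scaled to a common library size) and Scgb1a1 of club cells at 22180 to 39240 CPM. Some libraries stood apart. Library 1 of the single exposure held 11850 summed CPM of 8 heart muscle markers, against 78.5 to 662 in the other libraries, and its alveolar type 1 markers summed to 404 CPM, against 1262 to 2450. Sham library 1 held 2157 CPM of 6 skeletal muscle markers, against 0.818 to 112 elsewhere. Fat markers summed to 599 CPM in the first library of the single exposure and to 644 CPM in the third library of the 3 exposures, with the rest between 0.172 and 59.0 CPM. B cell markers summed to 260 CPM in library 1 of the single exposure, against 85.0 to 120 elsewhere. After 3 exposures, bone marrow progenitor markers (344 to 383 CPM) lay above sham (248 to 261). Neutrophil markers (65.7 to 114.5 CPM) lay below sham (177 to 429). The part of these differences in the histone values was not tested. Of 7 thymus markers measured, Rag2 was at 0 in every library and Rag1 did not exceed 0.349 CPM, and their summed level was 24.1 to 58.7 CPM. Sham library 1 lay between the other sham libraries in 70.9% of the genes tested and in 36 of 56 replication-dependent members. The other libraries lay between their group mates in 12.95 to 42.7% of genes and in 9 to 25 of these members. The sham libraries are therefore not shown to be independent of each other. The class medians and the genes that led each comparison are given below with values for fits that left out libraries, and sums are given for each library. In RNA from whole tissue, a larger number of cells in S phase and more histone RNA per cell cannot be told apart.

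The stem-loop that distinguishes the class was searched for in the 3′ untranslated regions of GENCODE M21 transcripts on GRCm38, the same build as mm10. The search took a stem of 6 bases that begins with GG, followed by 3 pyrimidines and T, a loop of 4 bases beginning with TT, and the exact complement of the stem. Transcripts were matched by gene identifier. The stem-loop was found in 40 of 58 replication-dependent members with a matched coding transcript (69.0%) and in 1 of 10 variants. Over all deposited genes it was found in 47 of 21092 with such a match (0.223%). The variant was H2afx, whose protein H2A.X is phosphorylated at DNA breaks. Of the 18 replication-dependent members in which it was not found, 11 had an annotated 3′ untranslated region under 25 bases, too short to hold it. The commonest form occurred in 23 members. The windows below show one stem-loop for each member that led a comparison, for abundant H4 genes and for H2afx, with the stem arms in capitals, the loop between them and the flanks in lower case.
Hist1h2bk: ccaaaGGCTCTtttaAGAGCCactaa
Hist1h2bg: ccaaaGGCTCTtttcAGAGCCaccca
Hist1h1d: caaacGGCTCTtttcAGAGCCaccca
Hist1h4c: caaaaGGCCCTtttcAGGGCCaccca
Hist1h4d: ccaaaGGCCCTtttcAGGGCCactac
Hist2h4: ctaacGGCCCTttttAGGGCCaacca
H2afx: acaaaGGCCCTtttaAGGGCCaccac
These stem-loops lie at chr13:22036300-22036315 (Hist1h2bk), chr13:23571843-23571858 (Hist1h2bg), chr13:23555787-23555802 (Hist1h1d) and chr13:23581950-23581965 (Hist1h4d) on the plus strand. Those of Hist1h4c (chr13:23698089-23698104) and Hist2h4 (chr3:96262939-96262954) lie on the minus strand, and that of H2afx at chr9:44335240-44335255 on the plus strand. The first arm reads GGCTCT in the H2B and H1 genes shown and GGCCCT in the H4 genes and H2afx. The annotated transcript ended within 100 bases of the stem-loop in 21 replication-dependent members and ran on past it in 19 for longer. It went on for 30 bases in Hist1h2bk, 770 in Hist1h4d and 4884 in Hist1h1d.

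Promoter windows of 300 bases, from 250 before to 50 after the RefSeq start on GRCm38.p6, were matched by gene number for 70 members. On either strand, TATAAA (the TATA box) occurred in 54.8% of 62 replication-dependent windows, 11.1% of 9 variant windows and 13.6% of 32851 windows of all genes. CCAAT, the box bound by NF-Y, occurred in 85.5%, 66.7% and 37.4%, respectively. It was in every H1, H2A, H2B and H3 window of the replication-dependent class and in 3 of 12 H4 windows. ATTTGCAT, the octamer bound by Oct-1 (Pou2f1), occurred in 20.97% of replication-dependent windows, in 7 of 17 H2B and 6 of 17 H2A windows and in no H1, H3 or H4 window, against 1.74% of all windows. TTTGGCGC, a form of the E2F site, was in none of the members' windows and in 0.514% of all windows. These are letter matches, not sites shown to be bound. The windows of 4 members are shown with these motifs in capitals: Hist1h2bk and Hist1h2bg as H2B genes that led the single-exposure comparison, Hist1h4c as the H4 gene that led the comparison of 3 exposures with sham, and H3f3a as a variant.
Hist1h2bk: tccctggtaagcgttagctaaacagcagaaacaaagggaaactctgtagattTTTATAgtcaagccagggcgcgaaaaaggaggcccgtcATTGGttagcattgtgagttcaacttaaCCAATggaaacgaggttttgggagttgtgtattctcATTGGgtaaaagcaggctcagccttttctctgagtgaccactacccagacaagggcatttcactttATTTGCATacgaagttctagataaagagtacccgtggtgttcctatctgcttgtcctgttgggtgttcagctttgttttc
Hist1h2bg: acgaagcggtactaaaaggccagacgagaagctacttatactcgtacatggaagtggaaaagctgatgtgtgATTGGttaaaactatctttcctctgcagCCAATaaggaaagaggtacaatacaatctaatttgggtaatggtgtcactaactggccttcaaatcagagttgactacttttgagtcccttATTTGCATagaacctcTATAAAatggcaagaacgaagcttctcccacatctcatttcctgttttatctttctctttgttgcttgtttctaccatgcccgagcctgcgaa
Hist1h4c: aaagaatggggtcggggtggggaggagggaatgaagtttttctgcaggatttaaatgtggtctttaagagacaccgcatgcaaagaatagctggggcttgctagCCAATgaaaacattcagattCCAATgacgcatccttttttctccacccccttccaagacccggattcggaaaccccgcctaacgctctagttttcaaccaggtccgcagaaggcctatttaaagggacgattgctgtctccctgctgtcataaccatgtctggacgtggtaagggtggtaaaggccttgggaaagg
H3f3a: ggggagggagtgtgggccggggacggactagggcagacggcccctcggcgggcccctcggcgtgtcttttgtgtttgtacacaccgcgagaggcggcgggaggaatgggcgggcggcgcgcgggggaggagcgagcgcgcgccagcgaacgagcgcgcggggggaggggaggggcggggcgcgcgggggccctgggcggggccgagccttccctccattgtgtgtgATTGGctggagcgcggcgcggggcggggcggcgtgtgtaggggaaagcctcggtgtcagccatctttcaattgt
The windows are chr13:22035571-22035870 on the plus strand, chr13:23571150-23571449 on the plus strand, chr13:23698409-23698708 on the minus strand and chr1:180813556-180813855 on the minus strand. In Hist1h2bg the TATAAA begins 43 bases and the octamer 59 bases before the start. In Hist1h2bk the octamer begins 30 bases before the start, and the TATAAA further upstream is read on the other strand, towards the neighbouring H2A gene Hist1h2ah.

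Levels between genes were compared in FPKM, which is per length. The median of the mean FPKM over 9 libraries was 11.9 for the 66 replication-dependent members and 17.5 for the 10 variants. By type it was 33.5 for H4, 17.1 for H3, 10.7 for H2B, 10.02 for H1 and 4.87 for H2A among replication-dependent members. The most abundant was Hist1h4d, an H4 gene (chr13:23581598-23582735), with 196, 200 and 201 FPKM in sham, 217, 210 and 285 after a single exposure, then 198, 343 and 313 after 3 exposures. Hist1h4h followed at 78.4 to 177 FPKM and Hist1h4c at 62.8 to 130. These ranges overlap each other, and that of Hist1h4d lies above both. The leading members of the other types were Hist1h2bc at 27.5 to 113 FPKM and Hist1h2bg (H2B), Hist1h1c at 31.6 to 52.7 and Hist1h1e (H1), Hist1h3b at 17.4 to 52.1 and Hist1h3i (H3), and Hist2h2aa1 and Hist2h2ac (H2A). Testis genes were the lowest, with Hist1h1t at a mean of 0.221 FPKM and Hist1h2ba at 0.550 FPKM. Among variants the order was H3f3b (122 to 237 FPKM), H3f3a (116 to 181), H2afz (58.1 to 100.1) and H2afy, a macroH2A gene with a mean of 44.3 FPKM. The ranges of H3f3a and H3f3b overlap, and both lie above the range of every replication-dependent H3 gene. Order by FPKM and by CPM differed: Hist1h1d averaged 21.96 CPM and 4.72 FPKM, and Hist1h1e 17.9 CPM and 25.7 FPKM. In mean CPM, Hist2h4 (83.1) and Hist1h1c (69.6) stood above Hist1h4d (59.2). The deposited table lists Hist1h4d at chr13:23581597-23581990, a shorter stretch than the GENCODE position given above. Lengths behind the deposited FPKM are not stated in the sources used here.

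**Figure D1:**
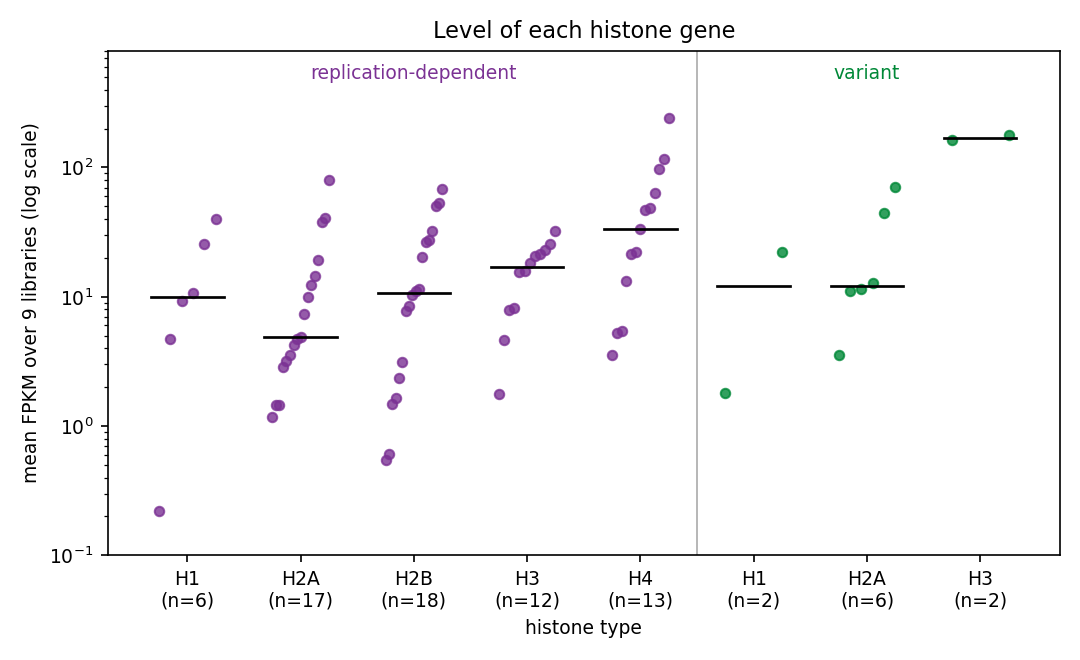
Mean FPKM over 9 libraries (y, log scale) of each of 76 histone genes (points), by type and class (x), with the median of each type as a line. H4 genes had the highest replication-dependent median, 33.5 FPKM, and H3f3a and H3f3b stood at 163 and 178 FPKM.

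Comparisons between groups used normalised counts. Of the members, 66 passed the filter on low counts (56 replication-dependent and all 10 variants), and the 10 that did not are described further on. An edgeR fit over all 14074 genes tested called 0 genes, 0% of those tested, at an adjusted p under 0.05 in each of the 3 comparisons, members included. The counts at an unadjusted p under 0.05 were 1693, 1112 and 920 genes for the single exposure against sham, 3 exposures against sham and 3 exposures against the single exposure. DESeq2 called 198, 89 and 5 genes, of which 1, 0 and 0 were members. What follows describes values and directions, with the share of all genes that met the same condition.

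After a single exposure, 38 of 56 replication-dependent members were higher than in sham (67.9%, against 53.8% of all genes), with a median log2 change of 0.25 against 0.03 for all genes. Of the 10 variants, 7 were higher, with a median of 0.09. By type, 12 of 14 H2B members were higher (median 0.44), as were 10 of 13 H4 (0.26), 8 of 12 H3 (0.13), 3 of 5 H1 (0.24) and 5 of 12 H2A members (-0.10). Unadjusted p was under 0.05 for 6 members higher and 1 lower, all replication-dependent, where 6.60% of all genes were higher and 5.43% lower by that rule. The groups did not overlap in 9 replication-dependent members higher and 1 lower, and in 2 variants higher and 1 lower, where 10.2% of all genes were higher and 10.7% lower. Leaving out sham library 1 gave a replication-dependent median of 0.34, against 0.09 without library 1 of the single exposure and 0.058 without sham library 2. Without the 3 libraries high in muscle or fat markers it was 0.03, and 32 of 55 members were higher.

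Hist1h2bk, an H2B gene (chr13:22035870-22036345), had the smallest p of all members in this comparison. It stood at 2.08, 1.51 and 1.57 CPM in sham, 7.28, 5.68 and 4.47 CPM after a single exposure, then 2.97, 3.00 and 2.62 CPM after 3 exposures, from 8 to 48 fragments per library. The 3 groups did not overlap, with the single exposure highest. The log2 change was 1.74 ± 0.36 (SE, n = 3 against 3) for the single exposure against sham, with an edgeR adjusted p of 0.211. It was the member called by DESeq2 (adjusted p = 0.0221) and by limma on log2(FPKM + 1) (adjusted p = 0.024). Leaving out each library in turn kept its unadjusted edgeR p under 0.05 in 9 of 9 fits, with log2 changes of at least 1.54. After 3 exposures its log2 change against sham was 0.72 ± 0.36 (SE, n = 3 against 3).

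Hist1h2bg, another H2B gene (chr13:23571396-23572013), stood at 15.1, 13.8 and 17.9 CPM in sham, 36.4, 46.1 and 25.5 after a single exposure, then 22.5, 19.9 and 48.3 after 3 exposures. Both irradiated groups lay above every sham library. Its log2 change was 1.21 ± 0.36 (SE, n = 3 against 3; edgeR adjusted p = 0.292) after a single exposure and 0.96 ± 0.36 (adjusted p = 0.560) after 3 exposures, and the latter was 0.44 without library 3 of that group.

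Hist1h1d, a linker histone gene, stood at 11.9, 10.9 and 16.7 CPM in sham, 41.4, 18.6 and 23.9 after a single exposure, then 30.7, 18.4 and 25.1 after 3 exposures. Both irradiated groups again lay above every sham library, with log2 changes of 1.09 ± 0.33 (SE, n = 3 against 3; edgeR adjusted p = 0.295) and 0.91 ± 0.33 (adjusted p = 0.549). The former was 0.69 without library 1 of the single exposure. Without sham library 1 they were 1.015 and 0.84, and the unadjusted edgeR p of the latter moved from 0.0222 to 0.0671. The deposited table lists this gene, like Hist1h2bg and Hist1h4h, at a chromosome 13 locus shared by 17 genes. The scaled counts of these genes lay within 0.1 of a whole number in every library, and sharing of reads was not tested.

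Hist1h4n, an H4 gene, stood at 5.29, 4.90 and 4.13 CPM in sham and at 30.2, 8.44 and 7.02 CPM after a single exposure, so that library 1 held most of the difference. Its log2 change of 1.67 was 0.69 without that library. Hist1h3d, an H3 gene, had a log2 change of 1.43 that was 0.97 without the same library, and Hist1h1b, a linker gene, one of 1.12 that was 0.87. Hist3h2a, an H2A gene outside the large clusters, was the member with the smallest p among those lower. It stood at 25.9, 21.5 and 33.1 CPM in sham and 20.2, 18.3 and 18.5 CPM after a single exposure. The change was -0.50 ± 0.21 on the log2 scale (SE, n = 3 against 3; edgeR adjusted p = 0.402). It was -0.32 without sham library 3, and its unadjusted p stayed under 0.05 in 4 of 9 edgeR fits that left out 1 library. The others among the 4 lowest p in that direction were H2afj (-0.36), Hist1h3a (-1.03) and Hist2h2aa2 (-1.15).

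**Figure D2:**
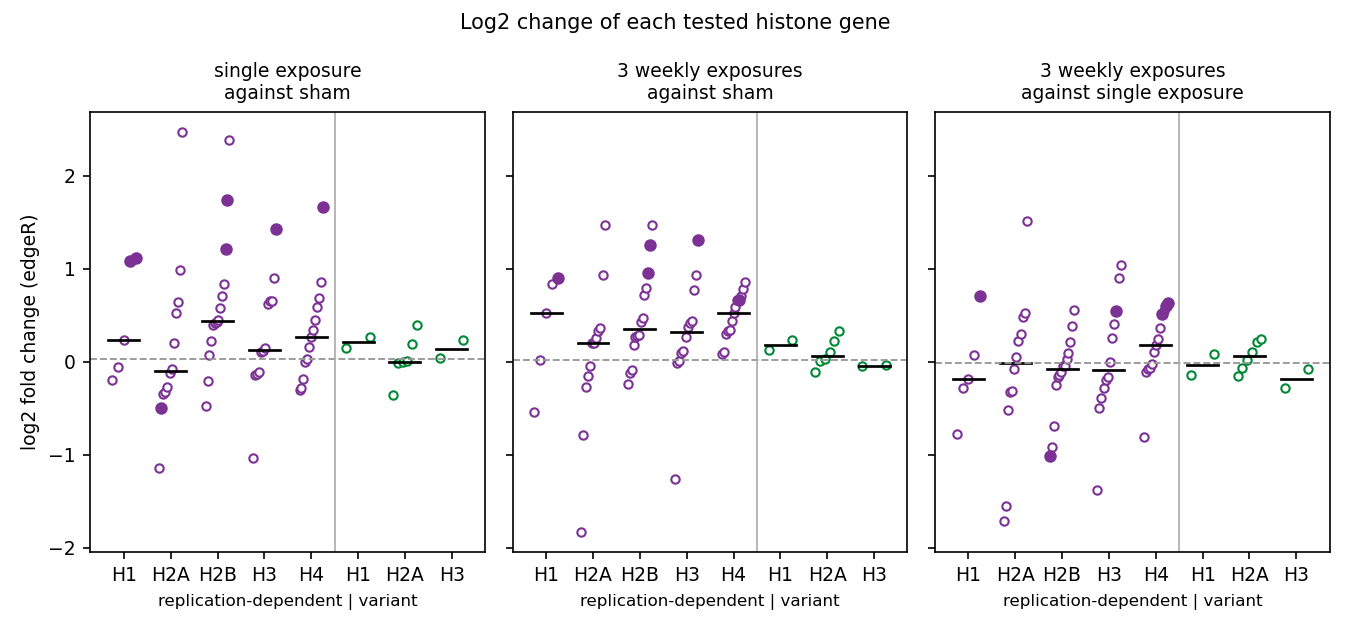
Log2 fold change from edgeR (y) of each of 66 tested histone genes by type and class (x) in the 3 comparisons (panels). Filled points have an unadjusted p under 0.05, short lines are medians and the dashed line is the median of all genes tested; the replication-dependent medians over all types were 0.25, 0.34 and -0.03.

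After 3 weekly exposures, 45 of 56 replication-dependent members were higher than in sham (80.4%, against 52.4% of all genes), with a median log2 change of 0.34 against 0.02. Of the variants, 7 of 10 were higher, with a median of 0.07, but 5 of 10 with a median of -0.00 without the third library of the 3 exposures. All 13 H4 members were higher (median 0.53), as were 11 of 14 H2B (0.36), 10 of 12 H3 (0.32), 4 of 5 H1 (0.52) and 7 of 12 H2A members (0.20). Unadjusted p was under 0.05 for 5 members higher and 0 lower, where 4.26% of all genes were higher and 3.64% lower. The groups did not overlap in 12 replication-dependent members higher and 2 lower, and in 0 variants, where 10.8% of all genes were higher and 11.1% lower. Of the 12, 6 were H4 genes. Leaving out sham library 1 gave a replication-dependent median of 0.32. Leaving out the third library of the 3 exposures, which held fat markers, gave 0.18. The median was 0.22 without sham library 2, 0.56 without sham library 3 and 0.52 without the second library of the 3 exposures. Without sham library 1 and without the third library of the 3 exposures, 1 and 2 members, rather than 5, had an unadjusted p under 0.05. Over all genes the count fell too, to 492 of 14300 and 895 of 14267, from 1112 of 14074. Without the 3 libraries high in muscle or fat markers the median was 0.13, with 32 of 55 members higher. Both comparisons with sham use the same 3 sham libraries.

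Hist1h4c (chr13:23697635-23698454) had the smallest p among the members. It stood at 19.7, 17.9 and 23.02 CPM in sham, 22.2, 20.8 and 19.0 after a single exposure, then 42.6, 27.0 and 26.9 after 3 exposures. Every library after 3 exposures lay above all others, whereas sham and the single exposure overlapped. The log2 change against sham was 0.67 ± 0.22 (SE, n = 3 against 3; edgeR adjusted p = 0.4995), and 0.41 without library 1 of the 3 exposures. The other members with the smallest p in this direction were Hist1h1d, Hist1h2bg and Hist1h2bh, an H2B gene with a log2 change of 1.26, and the fifth was Hist2h3b, an H3 gene, with 1.31. Among members lower after 3 exposures the smallest p belonged to Hist2h2aa1 (-1.83 ± 1.28, SE), followed by Hist3h2a (-0.27), Hist1h2ao (-0.79) and Hist1h1a (-0.53), and none of these had an unadjusted p under 0.05.

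Between the irradiated groups, 26 of 56 replication-dependent members were higher after 3 exposures than after one (46.4%, against 48.3% of all genes), with a median of -0.03 against -0.01. The variants divided evenly, with 5 of 10 higher and a median of -0.02. The H4 type had 8 of 13 higher (median 0.18), and the other types had medians of -0.18 (H1), -0.01 (H2A), -0.08 (H2B) and -0.08 (H3). Unadjusted p was under 0.05 for 5 members higher and 1 lower, where 2.79% of all genes were higher and 3.74% lower. The groups did not overlap in 7 replication-dependent members higher and 1 lower, and in 1 variant each way, where 4.10% of all genes were higher and 3.86% lower. Leaving out library 1 of the single exposure turned the direction: 43 of the 58 members then tested were higher, and their median was 0.22.

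Abundant H4 genes led this comparison. Hist1h4d stood at 56.1, 56.4 and 57.3 CPM in sham, 52.2, 38.6 and 58.6 after a single exposure, then 64.2, 79.9 and 70.0 after 3 exposures. Its libraries after 3 exposures lay above all others, with log2 changes of 0.52 ± 0.17 against the single exposure (SE, n = 3 against 3; edgeR adjusted p = 0.753) and 0.34 ± 0.17 against sham (adjusted p = 0.679). Hist1h4h stood at 41.3, 44.7 and 36.2 CPM in sham, 43.1, 21.5 and 34.3 after a single exposure, then 46.9, 46.3 and 57.4 after 3 exposures, the last group again above all others. Its log2 change against the single exposure was 0.60, and Hist1h4c, Hist1h1e and the H3 gene Hist1h3f had 0.64, 0.71 and 0.55. These values rest on single libraries in part: Hist1h4c was 0.38 without library 1 of the 3 exposures, Hist1h4h 0.38 without library 2 of the single exposure, and Hist1h3f 0.27 without library 3 of the 3 exposures. In limma on log2(FPKM + 1) the changes were 0.23 for Hist1h4d, 0.30 for Hist1h4c and 0.40 for Hist1h4h, with unadjusted limma p of 0.369, 0.113 and 0.136. Hist1h2bk was the member with an unadjusted p under 0.05 in the other direction, at -1.02 ± 0.34 (SE, n = 3 against 3; edgeR adjusted p = 0.753). Hist1h4n (-0.81), Hist1h1a (-0.77) and the variant H3f3a (-0.28) had the next smallest p among those lower.

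**Figure D3:**
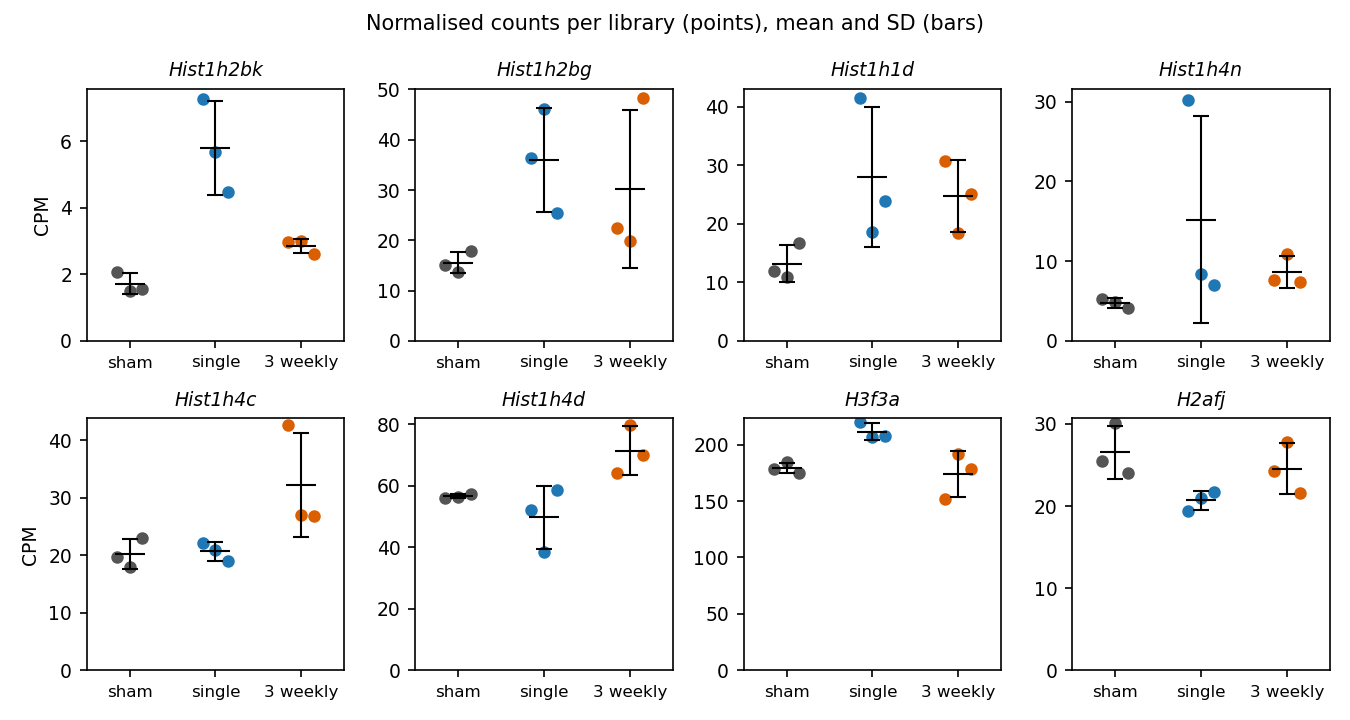
Normalised counts in CPM (y) of 8 histone genes in the 3 sham, 3 single-exposure and 3 weekly-exposure libraries (points), with the group mean and SD as bars. Hist1h2bk was highest after a single exposure (4.47 to 7.28 CPM), and Hist1h4c and Hist1h4d were highest after 3 exposures (26.9 to 42.6 and 64.2 to 79.9 CPM).

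Among the linker histones, Hist1h1c, the most abundant replication-dependent one in FPKM, stood at 69.7, 72.9 and 67.7 CPM in sham, 80.9, 68.9 and 52.7 after a single exposure, then 64.9, 88.3 and 60.3 after 3 exposures, and the groups overlapped. Its log2 changes against sham were -0.06 ± 0.19 and 0.02 ± 0.19 (SE, n = 3 against 3). Hist1h1e stood at 15.4, 20.5 and 12.8 CPM in sham, 14.4, 10.7 and 17.6 after a single exposure, then 16.9, 23.3 and 29.7 after 3 exposures, with groups that overlapped. H1f0, the replacement linker histone of differentiated cells, stood at 54.3, 58.4 and 48.02 CPM in sham and 63.3, 70.4 and 60.5 after a single exposure, without overlap (log2 change 0.27 ± 0.14, SE), and at 53.8, 63.5 and 58.2 CPM after 3 exposures. H1fx, the other replacement linker gene, ranged from 0.172 to 5.16 CPM within the single-exposure group alone.

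The H3.3 genes H3f3a and H3f3b encode the same replacement H3, which is placed on DNA outside replication. H3f3a stood at 178, 184 and 175 CPM in sham, 220, 207 and 208 after a single exposure, then 152, 192 and 178 after 3 exposures. The single exposure lay above all libraries of both other groups, with log2 changes of 0.24 ± 0.13 against sham (SE, n = 3 against 3; edgeR adjusted p = 0.481) and, for 3 exposures against the single exposure, of -0.28 ± 0.13 (adjusted p = 0.754). H3f3b stood at 391, 426 and 369 CPM in sham, 364, 475 and 381 after a single exposure, then 311, 475 and 371 after 3 exposures, with log2 changes against sham of 0.04 and -0.04. The groups of H3f3b overlapped throughout.

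Among H2A variants, H2afz, the gene for H2A.Z at promoters, stood at 75.9, 71.4 and 71.6 CPM in sham, 87.1, 94.7 and 67.7 after a single exposure, then 93.5, 61.2 and 70.0 after 3 exposures. Its log2 changes against sham were 0.19 ± 0.18 and 0.04 ± 0.18 (SE, n = 3 against 3). H2afv, which encodes a second form of H2A.Z, had changes of -0.01 and 0.01. H2afx stood at 16.7, 13.4 and 18.1 CPM in sham, 22.3, 12.4 and 13.3 after a single exposure, then 22.3, 9.95 and 19.5 after 3 exposures, and its groups overlapped. Its log2 changes against sham were -0.00 ± 0.34 and 0.10 ± 0.34 (SE, n = 3 against 3). The macroH2A genes H2afy and H2afy2 had changes of 0.00 and 0.40 after a single exposure, then 0.22 and 0.33 after 3 exposures. H2afj, the gene for H2A.J, stood at 25.5, 30.2 and 24.01 CPM in sham and 19.4 to 21.7 after a single exposure, all below sham. The change was -0.36 ± 0.17 on the log2 scale (SE, n = 3 against 3; edgeR adjusted p = 0.437). After 3 exposures H2afj stood at 24.3, 27.8 and 21.6 CPM, overlapping sham. No variant had an unadjusted p under 0.05 in the edgeR fit in any of the 3 comparisons.

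Summed over a class, replication-dependent members took 719, 643 and 859 CPM in sham, 949, 804 and 892 after a single exposure, then 812, 809 and 1016 after 3 exposures. The means were 740 ± 109, 882 ± 73.0 and 879 ± 119 CPM (SD, n = 3 each), and sham library 3 lay above 3 of the 6 irradiated libraries. The variant sums were 853, 905 and 801 CPM in sham, 894, 989 and 861 after a single exposure, then 786, 949 and 844 after 3 exposures, with means of 853 ± 52.3, 915 ± 66.8 and 859 ± 82.5 CPM. The replication-dependent sum per variant sum was 0.843, 0.710 and 1.07 in sham, 1.06, 0.813 and 1.04 after a single exposure, then 1.03, 0.853 and 1.20 after 3 exposures, so the groups overlapped. By type, the H4 sum was 216 to 258 CPM in sham, 239 to 317 after a single exposure and 295 to 393 after 3 exposures, and only the last group lay wholly above sham. The H2A sum was 105 to 171, 115 to 175 and 97.0 to 108 CPM, in the same order, and Hist2h2aa1 alone made up 0.152 to 94.5 CPM of it.

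Hist2h2aa1 is a near-identical copy of Hist2h2aa2, and the symbols of these rows are exchanged between the deposited table and GENCODE M21, so that no position is given for either. Hist2h2aa1 stood at 57.2, 41.5 and 54.9 CPM in sham, 0.152, 47.3 and 94.5 after a single exposure, then 24.8, 17.7 and 0.819 after 3 exposures. Hist2h3c1, a copy of Hist2h3c2 in the same cluster, stood at 22.7, 14.3 and 21.1 CPM in sham, 2.73, 16.9 and 43.4 after a single exposure, then 13.3, 10.9 and 0 after 3 exposures. The libraries in which Hist2h2aa1 was nearly empty were also those in which Hist2h3c1 was lowest. The counts of Hist2h2aa1, Hist2h3c1, Hist3h2a, Hist1h3d and Hist1h2br were not whole in 3 or more libraries after scaling (over 0.1 from a whole number), and their separate values are uncertain. Without these 5 members the replication-dependent sums were 639 ± 96.0, 782 ± 105 and 826 ± 137 CPM (SD, n = 3 each). In all, 26 members were listed at a locus shared with other genes.

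Hist2h4, an H4 gene of chromosome 3, stood at 54.0, 47.3 and 63.8 CPM in sham, 91.8, 86.8 and 121 CPM after a single exposure, then 36.5, 90.8 and 156 after 3 exposures. It lay above sham in every single-exposure library (log2 change 0.86 ± 0.42, SE), while library 1 of the 3 exposures was the lowest of all. Hist1h2bc, the most abundant H2B gene in FPKM, stood at 27.1, 42.4 and 35.4 CPM in sham, 50.8, 50.8 and 54.9 after a single exposure, then 22.9, 48.9 and 73.4 after 3 exposures. It too lay above sham in every single-exposure library and had its lowest value in library 1 of the 3 exposures. Hist4h4, the lone replication-dependent member of chromosome 6, had log2 changes against sham of 0.00 and 0.11, Hist2h2be 0.40 and 0.43, Hist2h2ac 0.20 and 0.25, and Hist2h3c2 -0.13 and 0.77. Of the abundant H3 genes, Hist1h3b had changes against sham of -0.14 and 0.12 and Hist1h3i of 0.66 and 0.26.

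H2A and H2B genes lie head to head in the clusters, and 9 such pairs of members had promoter windows that overlapped by 233 to 279 bases. In 5 of the pairs both genes were tested. After a single exposure the genes of a pair had the same sign in all 5, for example Hist1h2ae (0.65) and Hist1h2bg (1.21), or Hist1h2ao (-0.27) and Hist1h2bq (-0.47). After 3 exposures this held for 4 of 5, the exception being Hist1h2ak (0.20) and Hist1h2bn (-0.24). Of all tested H2B members, 12 of 14 and 11 of 14 were higher in these comparisons. Hist1h2bc and Hist2h2be had no promoter window and are not in these pairs. By annotated position Hist1h2bc lies head to head with Hist1h2ac, with opposite signs: 0.58 and -0.35 after a single exposure, 0.47 and -0.05 after 3 exposures. Hist2h2be lies so with Hist2h2ac, and both were higher in both comparisons. Levels within a pair differed in some, with mean CPM after a single exposure of 0.891 for Hist1h2ah and 5.81 for Hist1h2bk. Means were close in others, with 3.72 for Hist1h2ap and 3.61 for Hist1h2br, but these came mostly from library 1. The libraries stood at 9.71, 0.172 and 1.28 CPM for Hist1h2ap and at 9.71, 0 and 1.12 for Hist1h2br, whose counts were not whole. This pair is 1 of the 5 tested. The 10 members that failed the filter, among them Hist1h2ah, did not exceed 4.47 CPM in any library and included the testis genes Hist1h1t and Hist1h2ba.

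Genes of the cell cycle were set beside the histones in each library. The list of DNA replication and S phase genes summed to 640, 594 and 697 CPM in sham, 920, 865 and 675 after a single exposure, then 820, 650 and 705 after 3 exposures. In this list 42 of 49 tested genes were higher after a single exposure (median 0.40, 12 at an unadjusted p under 0.05). After 3 exposures 33 of 49 were higher (median 0.23, 7 higher and 1 lower at that p), and edgeR called none. Over all genes, 53.8% and 52.4% were higher, respectively. At that p, 6.60% of all genes were higher after a single exposure, and 4.26% were higher and 3.64% lower after 3 exposures. The G2 and mitosis list summed to 184, 152 and 228 CPM in sham, 499, 512 and 230 after a single exposure, then 460, 168 and 298 after 3 exposures. Against sham 20 of 20 genes were higher in both comparisons (medians 1.11 and 0.74), 13 and 5 of them at that p. For 3 exposures against the single exposure, 10 of 49 S phase genes and 1 of 20 G2 and mitosis genes were higher, against 48.3% of all genes. Their medians were -0.17 and -0.46, but -0.03 and -0.18 without library 2 of the 3 exposures. Without library 1 of the 3 exposures the medians against sham after 3 exposures were 0.082 for S phase and 0.26 for G2 and mitosis. Without the 3 libraries high in muscle or fat markers they were 0.30 and 0.27 for S phase and 1.03 and 0.76 for G2 and mitosis, for the single and the 3 exposures. Mki67, the proliferation antigen, had log2 changes of 0.89 and 0.59, and Rrm2, the ribonucleotide reductase subunit, of 0.86 and 0.66. Top2a, a topoisomerase of mitosis, had 1.39 and 0.85, the replicative helicase genes Mcm2 and Mcm5 had 0.58 and 0.23 and 0.67 and -0.07, and Pcna, the sliding clamp, 0.15 and 0.01. The libraries ranked alike in the lists and in the histones only in part. In sham, the replication-dependent, S phase and G2 and mitosis sums were all lowest in library 2 and highest in library 3. Library 1 of the single exposure had the highest replication-dependent sum of its group (949 CPM) and the highest S phase sum of all (920 CPM). Other libraries differed in rank. Library 2 of the single exposure had the highest G2 and mitosis sum and the lowest replication-dependent sum of its group, and library 3 of the 3 exposures had the highest replication-dependent sum of all with 298 CPM of the G2 and mitosis list. The part of cell division in the histone values was not tested.

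**Figure D4:**
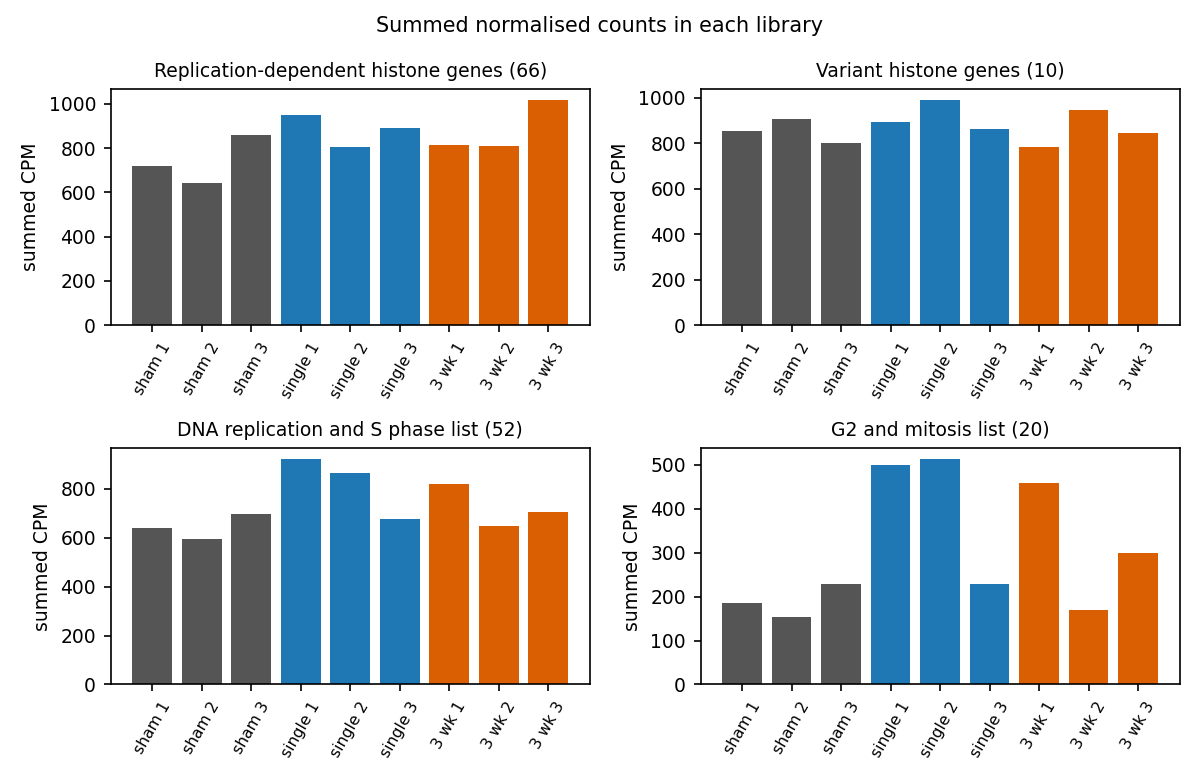
Summed normalised counts in CPM (y) in each of 9 libraries (x) for replication-dependent histone genes, variant histone genes, and the lists for S phase and for G2 and mitosis. Sham replication-dependent sums were 643 to 859 CPM and irradiated sums 804 to 1016 CPM, and the G2 and mitosis sum was lowest in sham library 2 at 152 CPM and highest in library 2 of the single exposure at 512 CPM.

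As a list, genes that make and handle histone messenger RNA had a median near that of all genes, while single genes lay on both sides of it. Of 29 tested genes for histone transcription and 3′ end processing, 13 were higher after a single exposure and 16 after 3 exposures (medians -0.04 and 0.02), and 0 had an unadjusted p under 0.05 in the edgeR fit against sham. For 3 exposures against the single exposure 2 had, both higher, where 2.79% of all genes were higher: Hinfp, a factor that binds H4 promoters, and Lsm11. Slbp, the stem-loop binding protein, stood at 21.6, 19.4 and 20.7 CPM in sham, 26.3, 26.9 and 14.04 after a single exposure, then 21.6, 17.4 and 18.8 after 3 exposures, and the groups overlapped. Npat, the coactivator of histone genes at the histone locus body, had log2 changes of 0.30 and -0.05, and Lsm11 and Lsm10, proteins of the U7 particle, of -0.48 and 0.25 and of -0.26 and -0.03. Eri1, an exonuclease that trims histone messenger RNA ends, had 0.40 and 0.14, Casp8ap2, a protein of the histone locus body, -0.04 and -0.18, and the E2F factor E2f1 and cyclin gene Ccne2 had 0.47 and 0.73 and 0.58 and 0.50. Of 38 tested histone chaperones and exchange factors, 20 and 22 were higher (medians 0.04 and 0.03). Unadjusted p was under 0.05 for 2 higher and 2 lower after a single exposure, where 6.60% of all genes were higher and 5.43% lower. After 3 exposures it was so for 2 higher and 5 lower, where 4.26% of all genes were higher and 3.64% lower. The latter were Asf1a and Daxx, higher, and Nasp, Supt6, Mis18a, Npm1 and Ncl, lower. Among them Daxx, a chaperone of H3.3, stood at 19.4, 16.6 and 19.9 CPM in sham and 29.3, 23.2 and 26.2 after 3 exposures, without overlap (log2 change 0.49 ± 0.20, SE, n = 3 against 3; edgeR adjusted p = 0.598). Nasp, a chaperone of soluble H3 and H4, stood at 25.1, 18.3 and 30.3 CPM in sham and 20.8, 15.3 and 13.1 after 3 exposures, with a log2 change of -0.59 ± 0.24 (SE). Cenpa, the centromeric H3, had log2 changes of 1.05 and 0.79, and its chaperone Hjurp 0.15 and 0.22. The replication-coupled chaperones Asf1b, Chaf1a and Chaf1b had changes of 0.54, 0.21 and 0.55 after a single exposure, then 0.25, 0.24 and 0.93 after 3 exposures. Hira and Atrx, which serve H3.3, had -0.04 and 0.14, then 0.03 and 0.10, and Anp32e, a chaperone of H2A.Z, -0.15 and -0.08.

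The deposited FPKM gave larger differences for the replication-dependent class than the counts did. In limma on log2(FPKM + 1), 47 of 56 members were higher after a single exposure with a median of 0.54. Over all genes, 8455 of 14074 were higher there, with a median of 0.09. After 3 exposures 48 of 56 members were higher with a median of 0.40, against 6871 of 14074 genes and a median of -0.01. The number of fragments behind 1 FPKM, relative to that of all genes and to the sham mean, was lower for replication-dependent members by 0.15, 0.28 and 0.22 on the log2 scale in the 3 single-exposure libraries (median of 39 members with at least 10 fragments in each library). It was lower by 0.12 and 0.16 in libraries 2 and 3 of the 3 exposures and stood at 0.00 in library 1. For the variants it differed from sham by at most 0.03.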

How the data were processed

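RNA from 9 lung libraries was measured by stranded sequencing after ribosomal RNA removal. The submitters' processing notes list cutadapt 1.9.3, HISAT2 2.0.4 and the build mm10. Which program estimated expression, on which annotation, is not given in the sources used here. Per the file headers, the deposited table holds FPKM and estimated counts. The authors' expected counts were not whole but followed a step in each library (0.854 to 1.19), by which they were divided before rounding. After this 92.0 to 93.4% of nonzero values lay within 0.1 of a whole number.

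Genes passing filterByExpr (14074) were normalized with TMM and tested in 1 quasi-likelihood fit of edgeR 4.0.16 over all 9 libraries (6 residual degrees of freedom, biological coefficient of variation 0.316), with Benjamini-Hochberg adjustment over all genes. Each SE was taken as the absolute log2 change divided by the root of F. A call is an adjusted p under 0.05. CPM values use the TMM factors. DESeq2 1.42.0 and limma 3.58.1 were alternatives, limma on log2(FPKM + 1) and log2(FPKM + 0.1). The pipeline was run on simulated counts with independent libraries and less spread between them than in these data. That run does not show how many changes would be found here.

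The members and lists were chosen with earlier results of these data known. Members described were, per comparison and direction, the 4 with the smallest unadjusted p, the 2 most abundant per class and type in FPKM, and a named set of variants and linker genes. Also named were genes of the lists and markers, of which Hinfp, Asf1a, Supt6, Mis18a, Npm1 and Ncl were chosen after their values were seen. Hist1h3f, Hist2h3b, Hist1h2ac, Hist1h2ae, Hist1h2ah, Hist1h2ak, Hist1h2ap, Hist1h2bn, Hist1h2bq, Hist1h2br, Hist2h2bb, Hist2h3c1, Hist1h1t and Hist1h2ba were named after their values were seen. Transcripts, stem-loops and coordinates came from GENCODE M21 and promoters from RefSeq (GRCm38.p6). At these depths counting error is large for genes with few fragments.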

Additional observations from a re-analysis of the deposited data

How the results depend on the processing

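Single members with an unadjusted p under 0.05 kept their direction under each of the 21 alternatives that gave a value. For genes called, DESeq2 gave 198, 89 and 5 in the order single exposure against sham, 3 exposures against sham and 3 exposures against the single exposure, limma on log2(FPKM + 1) gave 3, 0 and 1, limma on log2(FPKM + 0.1) gave 5, 2 and 1, and fits of only the 6 samples compared gave 0, 9 and 0, against 0 in edgeR. One histone gene, Hist1h2bk, was called for the single exposure under DESeq2 and under both limma settings (1 gene each). Histone genes at an unadjusted p under 0.05 were 15 and 8 of 66 in both limma settings against sham. Over all 14074 genes these counts were 1625 and 1041 at pseudocount 1, and 1623 and 1045 at pseudocount 0.1. In the fit of 6 samples 10 of 63 histone genes met the rule for 3 exposures, as did 1923 of all 13750 genes. With members summed by type, 1, 1 and 0 of 8 rows reached it, as did 1690, 1110 and 917 of all 14016 rows. Without the 3 libraries high in muscle or fat markers, a choice made after seeing the data, the count was 3 of 65 for the single exposure. Over all genes it was 876 of 13962. Leaving out 1 library at a time gave 6 to 11 for the single exposure and 1 to 11 for 3 exposures, the least without sham library 1. The counts over all genes moved as well, from 763 to 2338 for the single exposure and from 492 to 1722 for 3 exposures. The 492 (of 14300) came without sham library 1, with 1 of 70 members. The 1722 (of 14168) came without library 1 of the single exposure, with 11 of 68 members.

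The replication-dependent median for the single exposure was 0.54 and 0.60 in limma at pseudocounts 1 and 0.1, and 0.058 to 0.54 with 1 library left out, the lowest without sham library 2 and the highest without sham library 3. For 3 exposures against sham it ranged from 0.18 (without library 3 of that group) to 0.56 (without sham library 3), and the variant median from -0.00 to 0.10. For 3 exposures against the single exposure it ranged from -0.13 (without library 3 of the 3 exposures) to 0.22 (without library 1 of the single exposure), with 22 to 43 members higher. In limma at pseudocount 0.1, 17 of 56 were higher, as were 5277 of all 14074 genes. The variant median there was -0.15 in limma at pseudocount 0.1, -0.14 with members summed and -0.16 to 0.13 with 1 library left out. The causes were not tested.

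Nothing in the labels says whether the replicate numbers pair the samples. Same-numbered libraries deviated together with correlations of -0.08 to 0.30, and differently numbered ones with -0.38 to 0.24. With so few libraries per group these values can neither show nor exclude pairing. With the number as a replicate block, edgeR called 0 genes, and 9, 4 and 7 histone genes had an unadjusted p under 0.05, against 7, 5 and 6. Over all 14074 genes these counts were 1642, 1080 and 785, against 1693, 1112 and 920.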

Other observations

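Outside the members, 6 genes of the deposited table carried the same stem-loop form in a 3′ untranslated region: Clec2d, Dad1, H2bfm, Paqr9, Sars and Syncrip. H2bfm is a histone gene by name, and the other 5 are not.

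Replication-dependent members were also grouped by their annotated ends, which the choice of members did not use. The 19 tested members whose transcript ended within 100 bases of the stem-loop had medians of 0.16 and 0.29 for the single exposure and for 3 exposures against sham. The 17 tested members whose transcript ran on past it had medians of 0.03 and 0.34. The 8 members whose deposited gene identifier matched no coding transcript in GENCODE M21 had medians of 0.65 and 0.43. Among these 8, only Hist2h2bb was found by its identifier, as a non-coding gene. The other identifiers were absent, so the ends of those members are not known here. Where no stem-loop was found, medians were 0.45 and 0.20 for 5 tested members with a 3′ untranslated region under 25 bases. They were 0.40 and 0.44 for the other 7 tested members without it. These ends are those of GENCODE M21, and the deposited loci can end elsewhere. Those of Hist1h4c, Hist1h4d and Hist1h1e, grouped here as running on, stop within 100 bases of the stem-loop. That of Hist1h2bk stops before its stem-loop. The groups may therefore not describe the transcripts that were counted, and the difference between them was not tested.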
